A study of Drosophila melanogaster with 5 samples.

Results

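RNA of stage 8-9 embryos (S8-9, germ band extension) was compared with RNA of stage 5 embryos (S5, cellular blastoderm) for every gene of a subtracted Drosophila melanogaster cDNA library. The members were chosen by identity and not by signal: all non-control genes with a CG or CR number, 259 of 259 genes printed in the series, measured on 8 of its 20 nylon membranes. Both groups were Canton S wild type embryos, hand-selected by morphology and frozen without treatment, and the labels give 100 embryos per RNA sample. Total RNA of each interval was turned into SMART cDNA, labeled with 32P and hybridized to 4 membranes, A, B, C and D, which carry each clone in duplicate. Membranes A to C hold a non-redundant set with 588 to 590 library spots and membrane D the complete library with 1158. The library was enriched for cDNAs more abundant in gastrulae than in syncytial embryos, so that it is no survey of the genome. Each interval is 1 RNA sample, and nothing states that its membranes came from separate embryos. Errors and p-values therefore cover how much membranes differ, which may be technical, and 4 membranes set the precision.

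At stage 5 the nuclei of the syncytial embryo are enclosed by membranes that grow inward between them, a step called cellularization that depends on early zygotic transcripts. Gastrulation then moves the mesoderm inside, and at stages 8 and 9 the germ band extends over the dorsal side while neuroblasts leave the ectoderm. In that ectoderm the Notch pathway singles out neural precursors from their neighbors. Genes of the blastoderm, of cell adhesion, of Notch signaling and of the cytoskeleton were therefore examined as groups.

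Values are net spot intensities, the signal minus the local background, divided by the membrane's own median for RP49, a ribosomal protein gene, and are called levels over RP49. Spots whose signal lay less than 1 background SD above the mean background were not used, nor were clones whose duplicates had a coefficient of variation above 0.5. The comparison was made within a membrane letter, as the log2 level at S8-9 minus that at S5 on the same letter, and the mean of these differences was tested two-sided with limma where at least 2 letters had both values. In this way 177 genes were tested, 42 of them on 4 letters, 77 on 3 and 58 on 2. Of the other genes, 72 were measured in both intervals on 1 letter, 1 on no shared letter, 6 only at S5, 2 only at S8-9 and 1 in neither.

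A single gene passed the test as lower at S8-9 and none passed as higher. At an adjusted p under 0.05 (limma, Benjamini-Hochberg over 194 features) 0 genes were higher at S8-9, which is 0% of those tested, and 1 gene, Sry-alpha, was lower, which is 0.565%. At an unadjusted p under 0.05 the counts were 18 higher and 7 lower. The median difference was 0.19 on the log2 scale, with quartiles of -0.23 and 0.69, and 81.4% of the genes differed by less than 2-fold on average. Mean differences lay above 0 for 116 of the 177 genes tested and below 0 for 61. At least 2-fold differences comprised 26 genes higher and 7 lower, and the plot of mean levels shows most genes close to the diagonal. The ranges of the 2 intervals over their membranes did not overlap for 7 genes that were higher at S8-9 (3.95%) and for 4 that were lower (2.26%). In whole embryos fewer cells of a type and less RNA per cell cannot be told apart.

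**Figure D1:**
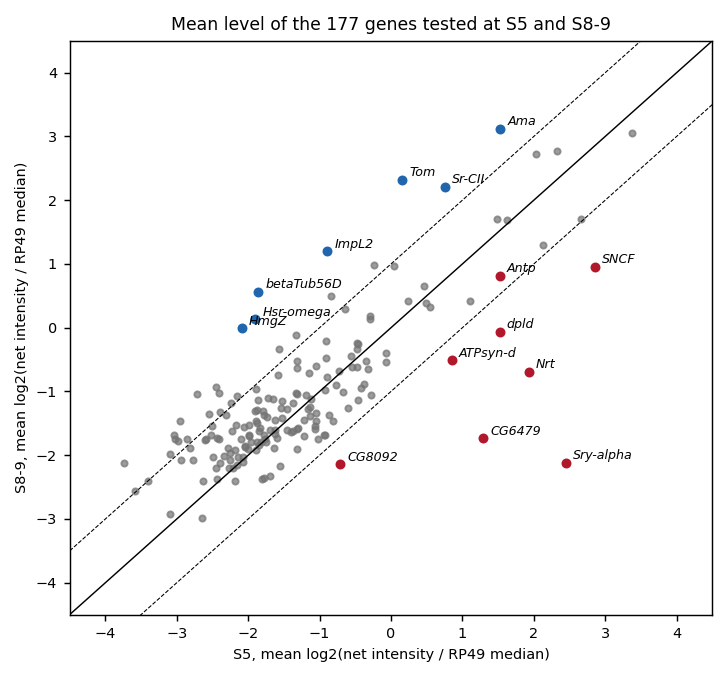
Mean log2 level over RP49 of the 177 genes tested, at S5 on the x axis and at S8-9 on the y axis, each over the letters that measured both intervals. The solid line marks equal levels and the dashed lines a 2-fold difference; named genes are drawn in blue where higher at S8-9, such as Ama and Tom, and in red where lower, such as Sry-alpha and CG6479.

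Membrane D stood apart from the others. Over genes, the differences on A and C had a Pearson correlation of 0.84 (108 genes), those on A and B of 0.75 (55 genes) and those on B and C of 0.63 (56 genes). With D the correlations were 0.21, 0.42 and 0.17 for A, B and C. Such points share the library and the membrane scaling and are not replicates. Of 164 genes measured on D and on A to C, 86 had the same sign in both, and among 50 genes with a mean difference of at least 2-fold on A to C, 32 did. In those 50 genes the median absolute difference was 1.57 on A to C and 0.49 on D. Without membrane D the fit called 27 of 129 genes higher (20.9%) and 8 lower (6.2%). That fit gave 1 spread to all features, and 11 of the 27 and 4 of the 8 were measured on A and C alone. Its SE was 0.42 for every gene on 2 letters and 0.34 for every gene on 3. P-values without D, here and below, therefore do not measure how well the letters of the named gene agreed. The parts of the omitted membrane and of the shared spread in these counts were not told apart.

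Membranes A and C were also alike beyond the genes. At S5 their log2 signals correlated at 0.97 over 862 spot positions and their local backgrounds at 0.97, against 0.68 to 0.76 for B with A or C. At S8-9 the same 3 pairs ranged from 0.79 to 0.92. The study used 2 labeling and hybridization events, and which membrane belongs to which is not given in the sources used here. With the differences of A and C averaged as 1 value, Sry-alpha was at -4.40 and no longer passed (adjusted p = 0.0748, limma).

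**Figure D2:**
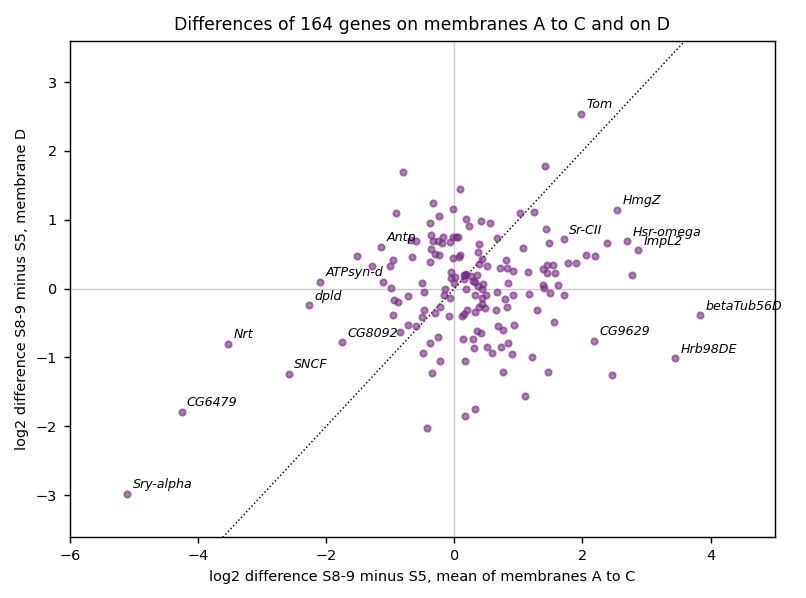
Log2 difference S8-9 minus S5 of 164 genes, as the mean over membranes A to C on the x axis and on membrane D on the y axis; the dotted line marks equal differences. Sry-alpha, CG6479 and Nrt lie at the lower left on both axes and Tom at the upper right, while betaTub56D, Hrb98DE and CG9629 are far to the right and below 0 on D.

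The scaling gene itself was uneven. Net signals of the kept RP49 spots ran from 0.0373 to 1.52 on membrane A of S5 and from 0.0298 to 1.45 on C of S5, against 0.0394 to 0.0815 and 0.0339 to 0.102 on the same letters at S8-9. Scaling to the mean of RP49 instead of the median moved the median difference of all genes from 0.19 to 0.70, the 75th percentile of the library moved it to -0.017, and the dap spike, on A to C alone, to -0.84. With the 75th percentile 6 genes were higher (3.39%) and 7 lower (3.95%), and a fit over all 20 membranes of the series with the letter as a block called 5 higher (2.82%) and 5 lower (2.82%). Solvent spots, which hold no DNA, reached the signal limit in 11.1 to 29.9% of cases on A to C of S5, in 3.47 to 11.8% on A to C of S8-9, and in 0.781% and 0% on D.

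Sry-alpha (serendipity alpha), whose protein organizes the actin network of the invaginating membrane during cellularization, gave the largest difference of all. Its levels over RP49 at S5 were 4.90, 10.8, 5.39 and 3.13 on membranes A to D, and at S8-9 they were 0.190, 0.305, 0.122 and 0.397. Every S5 membrane was above every S8-9 membrane, by a wide margin. The level fell 23.8-fold on average (log2 difference -4.57, SE 0.45, n = 4 letters, adjusted p = 0.00675, limma). The letters gave -4.69, -5.15, -5.47 and -2.98, so that the drop on D was the smallest. Without D it was -5.10 (adjusted p = 1.4e-31, limma), and the call was lost with a signal rule of 2 background SDs (-4.08, adjusted p = 0.0837, limma).

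The fragments of Sry-alpha that were printed as positive controls are other spots of membranes A to C. At S5 16 of 30 such spots reached the signal limit and at S8-9 4 of 30. On membrane C, the one letter with spots in both intervals, their median over RP49 was 1.08 at S5 and 0.203 at S8-9. This log2 difference of -2.41 was smaller in size than that of the library spots on C.

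CG6479, an uncharacterized gene, had the next largest difference. Its levels were 2.99, 3.14 and 1.99 on A, C and D at S5, and 0.157, 0.279 and 0.577 on A, B and D at S8-9. The intervals did not overlap. The letters with both values gave -4.26 on A and -1.79 on D, with a mean of -3.02 (SE 0.72, n = 2, adjusted p = 0.175, limma). It passed with the 75th percentile scaling (-3.29, adjusted p = 3.8e-06, limma) and in the fit over 20 membranes (-3.55, adjusted p = 7.0e-05, limma). CG6479 did not pass with the mean of RP49 (adjusted p = 0.0625, limma), quantiles (0.0797), no signal filter (0.0839) or A and C averaged (0.337).

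SNCF, listed with the cellularization genes, was at 4.81, 15.2, 6.01 and 3.45 on A to D of S5. At S8-9 it was usable on B and D only, with 2.54 and 1.47. Both lie below all S5 values, and the mean difference was -1.91 (SE 0.52, n = 2 letters, adjusted p = 0.209, limma). CG12730 was at 3.20, 3.48 and 0.329 on A, C and D of S5 and was measured at S8-9 on D alone, at 0.133, which is 2.47-fold lower without a replicate.

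Not all genes of the blastoderm list shared this drop. Of its 17 genes 14 were printed and 10 tested, of which 1 passed the test as lower and 0 as higher. The median difference of the 10 was 0.11, beside 0.19 over all 177 genes. Those above 0 included CG8960, whose levels of 0.480, 0.131 and 1.00 on B, C and D of S5 stood against 1.02, 0.485 and 1.58 at S8-9 on the same letters. Its intervals overlapped, and the difference of 1.21 (SE 0.38, n = 3, adjusted p = 0.215, limma) passed without D, on B and C (1.48, adjusted p = 0.00304, limma). CG4440 was at 3.90, 3.83 and 4.56 on A, C and D of S5 and at 8.33, 4.57 and 7.57 on these letters at S8-9. Its intervals did not overlap, though the difference of 0.69 had an adjusted p of 0.347 (limma). The sterol-sensing membrane protein Ptr (patched-related) was at 0.06 (SE 0.41, n = 3).

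**Figure D3:**
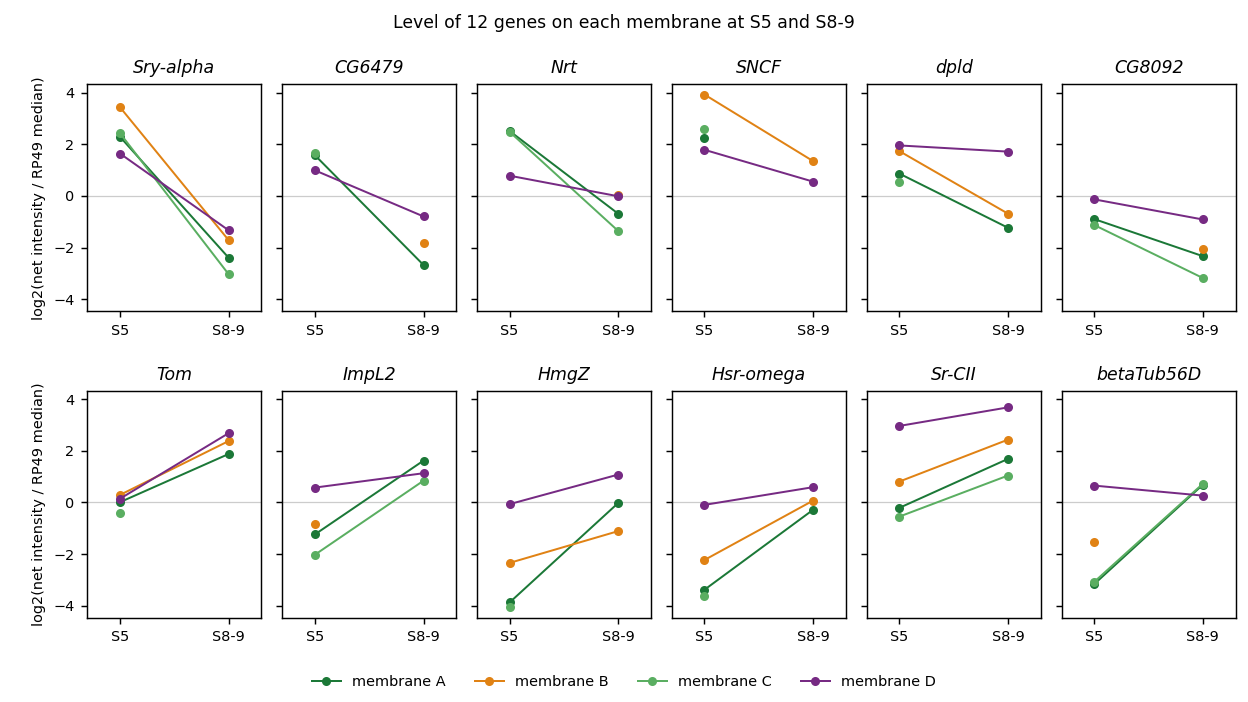
Log2 level over RP49 (y axis) of 12 genes at S5 and S8-9 (x axis), 1 point per membrane and interval, with a line joining the same letter where both were measured. In the upper row Sry-alpha falls on all 4 letters, and dpld barely differs on D; in the lower row Tom is higher on A, B and D alike, and betaTub56D is nearly level on D.

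Among the adhesion genes, a receptor and its ligand had mean differences of opposite sign, though neither passed the test. Nrt (Neurotactin) is a transmembrane adhesion molecule and Ama (Amalgam) a secreted immunoglobulin-domain protein that binds it. Nrt was at 5.71, 5.59 and 1.72 on A, C and D of S5 and at 0.619, 1.04, 0.389 and 0.991 on A to D of S8-9. Ama was at 3.92, 4.38 and 2.11 on A, C and D of S5 and at 10.4 and 7.24 on A and D of S8-9. Neither gene had overlapping intervals, with Nrt lower at S8-9 and Ama higher. The difference of Nrt was -2.62 (SE 0.64, n = 3 letters, adjusted p = 0.175, limma), with -3.21 on A, -3.84 on C and -0.80 on D. Without D, on A and C alone, Nrt passed at -3.53 (adjusted p = 5.1e-13, limma). The difference of Ama was 1.59 (SE 0.42, n = 2, adjusted p = 0.209, limma), with 1.41 on A and 1.78 on D.

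ImpL2, a secreted immunoglobulin-domain protein that binds insulin-like peptides, was higher at S8-9 on each letter. It was at 0.423, 0.564, 0.245 and 1.49 on A to D of S5 and at 3.08, 1.80 and 2.19 on A, C and D of S8-9. The intervals did not overlap, and D had the highest S5 level. The difference was 2.10 (SE 0.56, n = 3 letters, adjusted p = 0.175, limma), from 2.86 and 2.87 on A and C to 0.56 on D. Without D, on A and C alone, it was 2.87 (adjusted p = 4.1e-09). Leaving out A or C instead, ImpL2 did not pass (1.71 in both, adjusted p = 0.340 and 0.516, limma). Of 20 genes listed for adhesion and axon guidance, 11 were printed and 7 tested, and none passed. Above 0 lay 6 of the 7, beside 116 of 177 over all genes, and the median was 0.69.

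Genes of the Bearded family encode small proteins that dampen Notch signaling by binding the ubiquitin ligase Neuralized. Tom, a member of it, was at 1.01, 1.22, 0.751 and 1.11 on A to D of S5 and at 3.68, 5.21 and 6.43 on A, B and D of S8-9. All S8-9 levels were above all S5 levels, and D gave the largest difference. Tom was 4.49-fold higher on average (2.17 on the log2 scale, SE 0.33, n = 3, adjusted p = 0.0686, limma), with 1.87, 2.09 and 2.54 on A, B and D. It passed without D (1.98, adjusted p = 5.7e-05), with every gene on at least 3 letters (adjusted p = 0.00493), in the fit over 20 membranes (adjusted p = 0.00324) and with no filter on duplicates, where C also entered (2.14, n = 4, adjusted p = 0.0111). Tom did not pass without A, B or C (adjusted p = 0.0849, 0.140 and 0.0748, limma) or with A and C averaged (0.119). Nor did it with quantiles (0.112), no signal filter (0.160) or a rule of 2 background SDs (0.0837).

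BobA (Brother of Bearded A) was at 0.234, 0.182 and 0.899 on A, C and D of S5, and at 0.712, 0.430 and 1.64 at S8-9. Its difference was 1.24 (SE 0.33, n = 3, adjusted p = 0.175, limma). On membrane D 8 of its 10 clones with both values were higher at S8-9. Their median was 0.66, beside 0.15 over genes on D, and such clones are not replicates. Ocho, the third member of the family, was at 0.243, 0.528 and 0.162 on A, B and C of S5 and 0.469, 0.704 and 0.291 at S8-9. It was higher on 3 of 3 letters, by 0.74 (SE 0.32, adjusted p = 0.312, limma). Gp150, a leucine-rich-repeat membrane protein that acts in Notch signaling in the eye, was at 0.94, with 1.15 on A, 1.62 on C and 0.05 on D.

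All 4 printed genes of this list lay above 0, as did 116 of all 177 genes tested. Their median was 1.09 beside 0.19 over all genes, and none passed. Without D, 3 were called higher (Tom, and on A and C alone BobA and Gp150), in a fit that called 20.9% of all genes higher. Scaled to dap, on A to C alone, Tom was at -0.36 and Ocho at -0.54, so that their direction depended on the scaling.

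Sr-CII, a scavenger receptor of embryonic hemocytes, the macrophage-like blood cells, was measured on all 8 membranes. It was at 0.865, 1.75, 0.684 and 7.80 on A to D of S5 and at 3.23, 5.41, 2.06 and 12.8 at S8-9. Intervals overlapped because D was bright in both, but the same letter was higher at S8-9 in 4 of 4 cases. The difference was 1.46 (SE 0.30, n = 4, adjusted p = 0.113, limma), or 2.75-fold, and it passed without D at 1.71 (adjusted p = 1.9e-05). Without A, B or C it did not pass (adjusted p = 0.264, 0.189 and 0.274, limma).

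HmgZ, a chromatin protein with an HMG box, was at 0.0683, 0.197, 0.0597 and 0.956 on A to D of S5, and at 0.991, 0.464 and 2.12 on A, B and D of S8-9. The letters ranged from 3.86 on A to 1.23 on B and 1.15 on D. The mean of 2.08 (SE 0.62, n = 3) had an adjusted p of 0.209 (limma). Without D, on the unlike letters A and B, it was 2.55 (adjusted p = 1.7e-07, limma, with the shared SE of 0.42). In the list of chromatin and transcription genes, 11 of 13 were printed and 7 tested, with a median of 0.01 and none past the test. The cofactor spen (split ends) was at 1.09 (SE 0.45, n = 3), the RNA polymerase II subunit Rpb7 at -0.75 (SE 0.46, n = 3) with 0.33 on D, and the exosome nuclease Rrp6 at -0.34 (SE 0.49, n = 2). Without D, spen was called higher at 1.45 and Rpb7, on A and C alone, lower at -1.29 (adjusted p = 0.00376 and 0.0106, limma).

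Hsr-omega, a long non-coding RNA of nuclear speckles that is known for its heat shock response, was at 0.0961, 0.214, 0.0822 and 0.937 on A to D of S5. At S8-9 it was at 0.824, 1.05 and 1.51 on A, B and D. The difference was 2.03 (SE 0.53, n = 3 letters, adjusted p = 0.175, limma), with 3.10 and 2.30 on A and B and 0.69 on D. On D, where 6 of its clones were measured, 3 were higher at S8-9 and the clones ranged from -0.51 to 1.37. The other non-coding RNAs were CR32477 at 0.61 (SE 0.26, n = 4), roX1, a dosage compensation RNA, at 0.47 (SE 0.25, n = 4), and CR40712 at 0.43 (SE 0.46, n = 4). All 4 lay above 0, beside 116 of 177 over all genes, with a median of 0.54 and none past the test. CR40712 had 0.05 on C and -0.95 on D. Without D, CR40712 was called at 0.89 (adjusted p = 0.0360, limma), as was Hsr-omega at 2.70 (adjusted p = 2.8e-08, limma). CR32477, with the most clones, was higher at S8-9 in 16 of its 23 clones on D, at a median of 0.23. The median over genes on D was 0.15, and clones of 1 gene are not replicates.

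Membranes disagreed for a gene of the cytoskeleton list. The ubiquitous beta-tubulin betaTub56D was at 0.112, 0.346, 0.118 and 1.57 on A to D of S5 and at 1.61, 1.65 and 1.20 on A, C and D of S8-9. It differed by 3.85 on A and 3.80 on C and by -0.39 on D. The mean of 2.42 (SE 0.91, n = 3, adjusted p = 0.279, limma) became 3.83 without D (adjusted p = 7.9e-15, limma), from A and C alone. The printed tubulin control was at 0.95 (SD 1.23, n = 4 letters, higher on 2 of 4) and the actin control at 0.17 (SD 1.64, higher on 2 of 4). For both controls the higher letters were A and C, the letters on which betaTub56D was higher. On B and D neither control was higher at S8-9. The letters ranged from -0.17 to 2.29 for tubulin and from -1.86 to 1.61 for actin. The cause was not tested.

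Among the regulators of cell shape, the actin-binding protein gene ena (enabled) was at 0.347, 0.412, 0.166 and 0.757 on A to D of S5 and at 1.89 and 1.06 on B and D of S8-9, without overlap. Its difference was 1.34 (SE 0.58, n = 2, adjusted p = 0.320, limma). The mesodermal beta-tubulin gene BetaTub60D was at 0.64 (SE 0.42, n = 2). Of 15 listed genes 8 were printed and 7 tested, with a median of 0.64 and none past the test.

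Lower means outside the blastoderm list included that of dpld (dappled, now wech), which in muscle links integrins to the cytoskeleton. It was at 1.82, 3.34, 1.44 and 3.88 on A to D of S5 and at 0.426, 0.621 and 3.29 on A, B and D of S8-9. It was lower by 2.10 and 2.43 on A and B and by 0.24 on D. The mean was -1.59 (SE 0.51, n = 3, adjusted p = 0.238, limma), and -2.26 without D (adjusted p = 4.3e-06). CG8092 (row), a zinc finger protein, was at 0.538, 0.459 and 0.914 on A, C and D of S5 and at 0.199, 0.239, 0.110 and 0.532 on A to D of S8-9. Its letters agreed better, at -1.44, -2.05 and -0.78, with a mean of -1.42 (SE 0.38, n = 3, adjusted p = 0.175, limma). Without D, on A and C alone, CG8092 was at -1.75 (adjusted p = 4.6e-04, limma).

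ATPsyn-d, a subunit of the mitochondrial ATP synthase, was at 2.36, 2.86, 2.08 and 1.20 on A to D of S5. At S8-9 it was at 0.657, 0.408 and 1.29 on A, C and D. It was lower by 1.84 and 2.35 on A and C but not on D, where the difference was 0.10. The mean was -1.36 (SE 0.55, n = 3, adjusted p = 0.310, limma), and -2.10 without D, on A and C alone (adjusted p = 1.9e-05, limma). Other genes of translation, metabolism and secretion were spread around 0, with 13 of 14 printed genes tested, none past the test and a median of 0.08. They included CG9629 (Aldh7A1) at 1.20 (SE 0.70), with 2.80 on A, 1.55 on C and -0.76 on D, CG5854 at 0.66 (SE 0.48), and l(1)G0155 (Ykt6), a SNARE of vesicle fusion, at -0.65 (SE 0.35). Without D, CG9629, on A and C alone, and CG5854 were called higher, at 2.18 and 1.21 (adjusted p = 8.7e-06 and 0.00304, limma).

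Among genes chosen for one sign on at least 3 letters, smaller negative differences were the following. Sxl (Sex lethal), the splicing regulator of sex determination, was at -0.76 (SE 0.33, n = 3), CG15628 at -0.77 (SE 0.31, n = 3), Tctp, the translationally controlled tumor protein, at -0.68 (SE 0.37, n = 3) and CG41421 at -0.68 (SE 0.25, n = 4). Their adjusted p-values ran from 0.278 to 0.368 (limma). In the other direction CG14641 was at 1.39 (SE 0.50, n = 3, adjusted p = 0.278), with 1.19 on B, 2.61 on C and 0.38 on D. Over the 119 genes measured on at least 3 letters, 31 were higher and 16 lower on every one of them.

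No patterning gene passed with all 4 letters. Antp, a Hox gene of the thorax, was at 4.33, 6.03, 3.76 and 0.687 on A to D of S5 and at 2.40, 2.77, 1.37 and 1.05 at S8-9. It was lower on A, B and C and higher on D, with a mean of -0.71 (SE 0.40, n = 4, adjusted p = 0.368, limma), and without D it was at -1.14 (adjusted p = 0.00514, limma). In the opposite direction tup was at 1.17 (adjusted p = 0.00421, limma) and egr, on A and C alone, at 1.39 (adjusted p = 0.00534, limma) without D. On D itself tup was at -0.07 and egr at 0.01. The gap gene Kr (Kruppel) was higher on 4 of 4 letters by 0.69 (SE 0.26, adjusted p = 0.279, limma), and the LIM-homeodomain gene tup on 3 of 4 by 0.86 (SE 0.36). Of 26 listed segmentation and homeodomain genes 11 were printed and 6 tested, with a median of 0.35. In the dorsal ectoderm list, where 5 of 6 printed genes were tested at a median of 0.83, the tumor necrosis factor egr (eiger) was at 0.93 (SE 0.42), CG6234 (Dtg) at 0.83 (SE 0.56) and the growth inhibitor scyl at -0.48 (SE 0.37). The repressor brk (brinker), which limits Dpp targets, was at -0.62 (SE 0.43, n = 2).

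Receptors and regulators of the Hedgehog, Wnt and EGF pathways were few among the genes tested. The Hedgehog receptor ptc (patched) was at -0.52 (SE 0.33, n = 3), lower on each letter, the Wnt inhibitor nkd (naked cuticle) at 0.49 (SE 0.56, n = 2) and the kinase nmo (nemo), which restrains Wnt signaling, at 0.85 (SE 0.36, n = 3). Egfr, the epidermal growth factor receptor, was at 1.00 (SE 0.42, n = 2), and the small GTPase R (Rap1) at 0.03 (SE 0.33, n = 3). The Hedgehog and Wnt list, with 4 of 5 printed genes tested, had a median of 0.28, the FGF and EGF list, with 2 of 5, one of 0.51, and no gene of either passed with all 4 letters. Without D, nmo was called at 1.15 (adjusted p = 0.0257, limma).

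RNA-binding and cell cycle genes did not pass with all 4 letters either. The hnRNP gene Hrb98DE was at 1.22 (SE 1.14, n = 2), with 3.45 on A and -1.01 on D, the SR protein gene B52 at 0.71 (SE 0.26), higher on 4 of 4 letters, and CG6686 at -0.30 (SE 0.46), with a median of 0.71 over these 3. In the cell cycle and ubiquitin list skpA, a subunit of SCF ubiquitin ligases, was at 0.93 (SE 0.54, n = 3, with 0.29 on A, 2.40 on B and 0.09 on C), CG14939 (CycY) at -0.84 (SE 0.63), CycB3 at -0.50 (SE 0.40) and Aos1, of the SUMO activating enzyme, at 0.22 (SE 0.47). Without B, skpA was at 0.19 (adjusted p = 0.875, limma), and in the fit without D, on the same 3 letters as before, it was called (adjusted p = 0.0286, limma). The 6 tested genes of the list had a median of 0.12. Of 21 printed genes for uncharacterized secreted or membrane proteins, Sr-CII and CG6479 among them, 13 were tested, none passed and the median was 0.20. Above 0 were 9 of the 13, beside 116 of 177 over all genes.

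**Figure D4:**
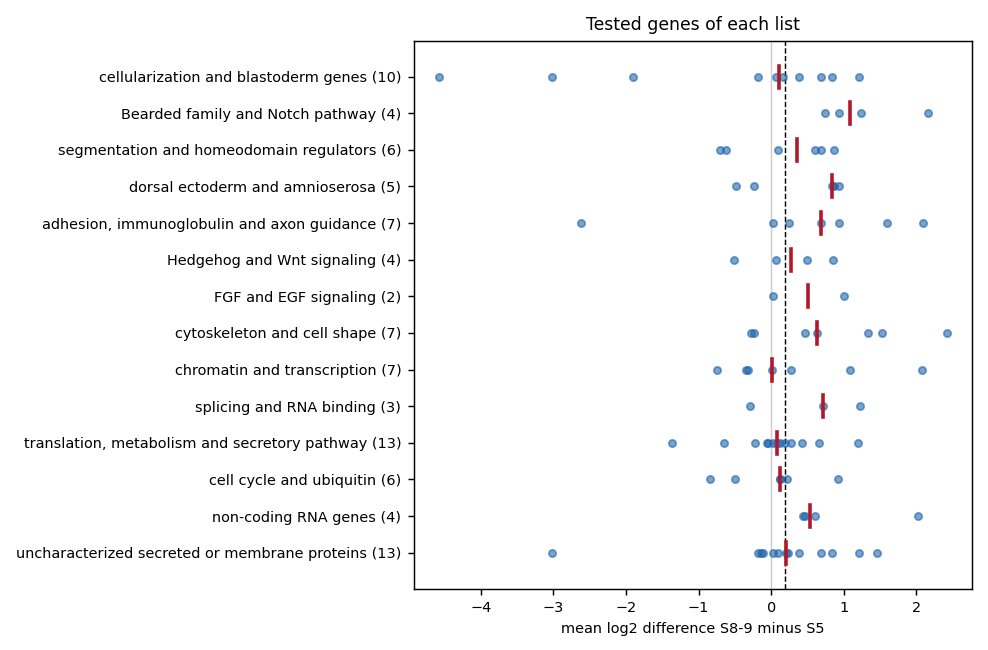
Mean log2 difference S8-9 minus S5 (x axis) of the tested genes of each list (rows, number of genes in parentheses), 1 point per gene, with the median of a list in red. The dashed line is the median of all genes tested, 0.19; the medians of the lists range from 0.01 to 1.09.

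The genes called without membrane D could be read on D, which that fit had not used. Of the 27 higher ones, 23 were measured on D, 15 of these were above 0 there and 13 above the median gene of D. Their median was 1.48 on A to C and 0.24 on D, where the median over genes was 0.15. Tom, HmgZ and CG31635 were the 3 that were at least 2-fold higher on D as well, at 2.54, 1.15 and 1.11. Of the 8 lower ones 4 were below 0 on D, with a median of -0.07, and Sry-alpha was the 1 at least 2-fold lower. The 4 were Sry-alpha, Nrt, dpld and CG8092.

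Setting both intervals beside the others of the series shows where they lie in time. On the log2 scale Sry-alpha had mean levels of 2.45 at S5 and -2.12 at S8-9, with -2.36 in the earlier S2-3 interval (1 membrane), -1.25 in the S6-7 interval between them and -1.50 in the later S10-12. Nrt, CG6479 and dpld likewise had their highest mean at S5 and were at -0.21, -1.66 and -0.16 at S6-7 already. In time order Tom had -2.73, 0.0089, 1.27, 2.31 and 0.28, and was highest at S8-9. ImpL2, HmgZ and Sr-CII were also highest at S8-9, at 1.20, -0.01 and 2.21. Hsr-omega was as high at S10-12 (0.14) as at S8-9 (0.13). Means rest on different membranes in each interval, and no test was made across them.

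**Figure D5:**
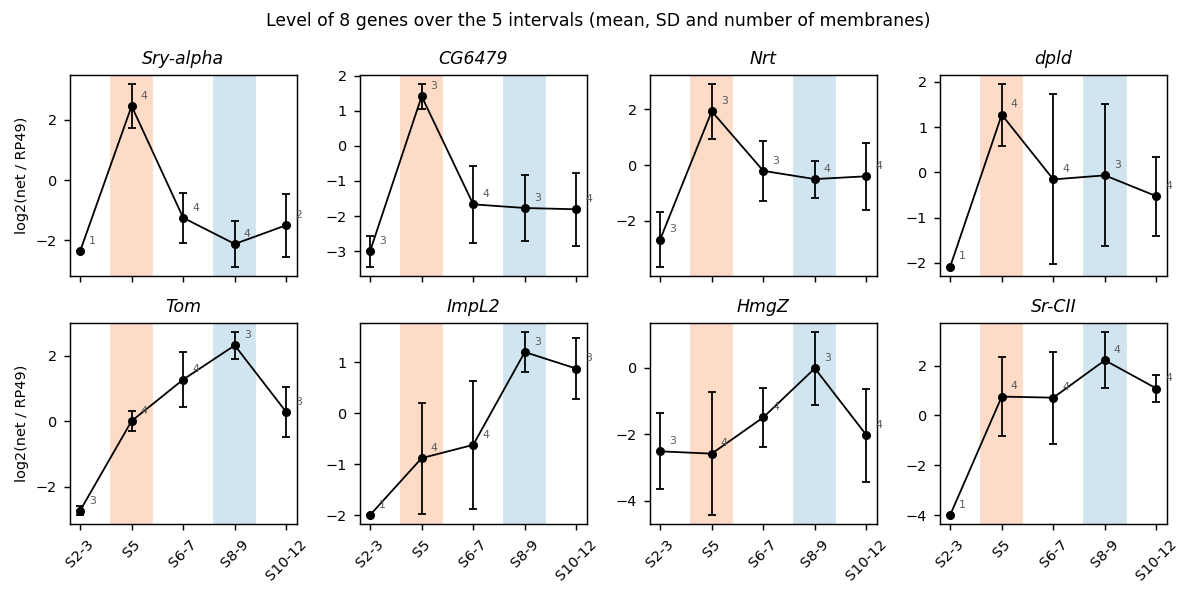
Mean log2 level over RP49 (y axis) of 8 genes at the 5 intervals (x axis), with bars of 1 SD over membranes and the number of membranes beside each point; points of 1 membrane have no bar. S5 is shaded red and S8-9 blue. The upper row peaks at S5 and the lower row at S8-9.

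Control fragments of mesoderm genes were printed beside the library. The heart regulator tin (tinman) was at 0.146, 0.364, 0.116 and 0.156 over RP49 on A to D of S5 and at 0.376, 0.890, 0.412 and 0.516 at S8-9, from 9 and 22 of 34 spots that passed. The kept spots were brighter at S8-9 on 4 of 4 letters. At S5, 4, 2 and 2 of 10 spots were kept on A to C and 1 of 4 on D. Solvent spots of these membranes reached the limit in 29.9, 15.3, 11.1 and 0.781% of cases, a lower share on each. Since so few spots were kept, no fold is given. Spots of sna (snail), which sets up the mesoderm, passed in 13 of 34 cases at S5 and 3 at S8-9, while the kept ones differed by -0.055 (SD 1.00, n = 2 letters, higher on 1). On A and C of S8-9 no sna spot passed. Yet the median net signal of all sna spots there was 0.0503 and 0.0685, beside RP49 medians of 0.0518 and 0.0755. Pass counts therefore do not measure levels. Spots of fog, which drives the invagination of the mesoderm, passed in 3 and 0, and those of the dorsoventral regulator dl (dorsal) in 8 and 5. The mesoderm regulator twi (twist) passed in 16 and 12, with a difference of -0.37 (SD 0.53, n = 4), which rested on only 1 kept spot on D of S5.

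The genes outside the test were mostly those of the larger membrane. Of the 72 measured in both intervals on 1 letter, 70 were on D, 45 were above 0 and 27 below, with a median of 0.27 and a range from -1.30 (CG12730) to 1.56 (rdx, a BTB adaptor of a ubiquitin ligase). At least 2-fold higher were 10 of them and 2-fold lower 2, without a replicate. Where no spot of a gene reached the signal limit in 1 interval, the level gives a bound, taken against the lowest signal kept on each membrane or the gene's own signal if brighter. MESR3 was at least 2.78-fold higher at S8-9, with 0 of 8 spots kept at S5 and levels of 0.129, 0.184 and 0.0906 on A, B and C of S8-9. The phosphatidylinositol kinase gene fwd was at least 1.51-fold higher at S5 on A and C, and the corepressor gene Sin3A at least 1.15-fold on A, C and D.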

How the data were processed

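The authors deposited 4 intensity values per spot, read in VersArray Analyzer on an arbitrary scale without normalization: mean signal, background mean, background SD and net. A further table deposited by the authors holds 1 normalized intensity value per interval for unnamed features and was used for a tally only. The study's composite quality filter (qcom) was left out, and dap was not used for scaling since membrane D carries none. Of 259 gene IDs, 238 matched a RefSeq locus tag, used for names alone. Clones of a gene were averaged before log2 values were taken.

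Within-letter differences were fitted by lmFit and eBayes (limma 3.58.1, R 4.3.3) with an intercept only. P-values were adjusted by Benjamini-Hochberg over genes, introns and intergenic regions together. Python 3.11.15, pandas 2.3.3 and NumPy 2.4.6 served for tables. The fit was tested on simulated data, with independent noise of equal spread on every letter. Such data have neither the alike membranes A and C nor the unlike D, so they check the code and not the calls. Earlier results of these data were known when the members, the 14 lists, the tests and the naming rule were chosen. Named are, in each direction, up to 12 genes past the test, filled to 8 by size among those of 1 sign on at least 3 letters, up to 4 tested genes per list, genes with a bound on at least 2 letters, and the controls. CG4440, CG12730, CG31635 and rdx were named after their values were seen. One gene that the rule names is not reported here. The alternatives were other scalings (the mean of RP49, the 75th percentile, RP49 with actin and tubulin, dap, quantiles), no background subtraction, other signal and duplicate filters, the median of clones, at least 3 letters, other fits, an added 2-fold limit and leaving out each letter. Centring each letter on its median gene, requiring both duplicate spots, limiting D to the clones of A to C, and averaging A and C, with D or without, were added after the data were seen.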

Additional observations from a re-analysis of the deposited data

Results flagged for a closer look

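Among 65 sets of 4 membrane values of the named genes, 2 had a membrane far from the other 3 by Dixon's criterion, and chance alone gives about 1 in 20. At S8-9 scyl had a log2 level of 0.80 on membrane D, and ptc one of -2.62 on membrane C.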

How the results depend on the processing

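The counts of genes higher and lower, 0 and 1, were also 0 and 1 under dap and quantile scaling, with no signal filter, the median of clones, D limited to the clones of A to C, an added 2-fold limit and both fits without a replicate block. They were 3 and 1 with the mean of RP49, 6 and 7 with the 75th percentile or letters centred on their median gene, 3 and 5 with RP49, actin and tubulin, 4 and 9 with no background subtraction, 1 and 1 with no filter on duplicates, 0 and 0 with a rule of 2 background SDs or A and C averaged, 5 and 3 with at least 3 letters, 5 and 5 over 20 membranes with the replicate block, 4 and 3 with both duplicate spots kept, and 8 and 2 for the average of A and C with B only. Leaving out 1 letter gave 0 to 27 higher and 1 to 8 lower, with the highest counts without D. In the fits with the mean of RP49, the 75th percentile, actin and tubulin, dap, no background, centring, no membrane D, or A and C averaged with B only, limma gave all features 1 spread, whose part in the counts was not tested. The median difference of 0.19 was 0.70 with the mean of RP49, -0.017 with the 75th percentile, -0.25 with RP49, actin and tubulin, -0.84 with dap, -0.10 by quantiles, -0.074 with no background subtraction, 0.0277 with no signal filter, 0.055 with 2 background SDs and -0.0349 when centred. It ranged from 0.18 to 0.24 without 1 letter. Of 1144 values of 55 named genes, 988 kept direction and side of the threshold, 100 came to pass it, 2 (Sry-alpha, above) no longer passed and 54 changed sign. The cause was not tested. Signs changed with dap for Tom (-0.36), Ocho (-0.54), tup (-0.10), Kr (-0.46), nmo (-1.18), Ptr (-0.49), R (-0.71), BetaTub60D (-0.27), spen (-0.88), B52 (-0.47), CG5854 (-0.062), skpA (-0.35), CR32477 (-0.56), roX1 (-0.76) and CR40712 (-0.38). With the mean of RP49 they changed for brk (0.48), scyl (0.046), Rrp6 (0.23), CG6686 (0.021) and CycB3 (0.14), and with RP49, actin and tubulin for nkd (-0.041), Ptr (-0.66), R (-0.70), BetaTub60D (-0.53) and Aos1 (-0.25). Quantiles turned nkd (-0.024), Ptr (-0.51), R (-0.24) and CR40712 (-0.19), and no background subtraction nkd (-0.080), Aos1 (-0.062) and CR40712 (-0.082). A rule of 2 background SDs turned brk (0.22) and R (-0.31), the replicate block over 20 membranes brk (0.10) and Ptr (-0.13), and both fits without the block nkd (-0.0018), Ptr (-0.20) and CG6686 (0.20). Ptr and R were at -0.19 and -0.23 with the 75th percentile, -0.17 and -0.21 when centred and -0.12 and -0.057 with A and C averaged. Without 1 letter, Ptr ran from -0.36 (no A) to 0.42, CR40712 from -0.0044 (no A) to 0.89 and R from -0.17 (no C) to 0.19. With no signal filter R (-0.13) and CG6686 (0.016) turned, and with no filter on duplicates CycB3 (0.035).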

Other observations

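Clones from outside annotated genes were printed as well. Of 17 introns and intergenic regions tested, none passed, and the largest difference was an intergenic region at 2.17 (SE 0.34, n = 3 letters, adjusted p = 0.0686, limma), higher at S8-9 on each letter, followed by another at 1.58 (SE 0.37, n = 3, adjusted p = 0.175). An intron of CG40196 was higher on 4 of 4 letters by 1.02 (SE 0.27, adjusted p = 0.175).

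In the authors' own table of unnamed features with 1 value per interval, 74 features were higher at S8-9 than at S5 and 49 lower, with a median log2 ratio of 0.45. The highest of the 5 intervals was S8-9 for 56 features and S5 for 20. The table names no features and gives no spread.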
